A study of Mus musculus with 30 samples.

Results

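The 10 genes followed here encode desaturases, elongases and enzymes that place fatty acids in lipids, and were measured in the mouse ventral prostate (VP). Most of them, but not all, act on polyunsaturated chains. The desaturases are Fads1, Fads2 and Fads3, and the elongases are Elovl1, Elovl2, Elovl5 and Elovl7. Acsl3 and Acsl4 are acyl-CoA synthetases, and Lpcat3 is a lysophospholipid acyltransferase. The genes were chosen by their symbols, for what their enzymes do. They are 10 of the 39179 gene identifiers in the count tables, of which 37693 carry a symbol. RNA was sequenced from the VP of 30 male C57BL/6 mice, 5 on each of 3 diets for 12 weeks and 5 on each for 32 weeks. The diets differed in their fat, which was linseed oil (LO, rich in n-3 polyunsaturated fatty acids), soybean oil (SO, rich in n-6 polyunsaturated fatty acids) or lard (PF, mainly saturated fatty acids). All 3 were purified diets with the same normal fat content, were given from weaning and are compared here with each other. The labels name no transgene or deletion. The mice at 32 weeks were also older than those at 12 weeks. Time on the diet, age and any batch between the times therefore cannot be told apart.

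Mammals take linoleic acid (n-6) and alpha-linolenic acid (n-3) from the diet and lengthen and desaturate both with the same enzymes. Fads2 carries out the first and usually limiting desaturation, Elovl5 adds a pair of carbons, and Fads1 makes the next double bond, which gives arachidonic acid from the n-6 series and eicosapentaenoic acid from the n-3 series. Elovl2 takes these products further, toward docosahexaenoic acid. Elovl1 and Elovl7 lengthen mostly saturated and monounsaturated very long chains, and Fads3 lies in the same gene cluster as the other desaturases but acts on sphingoid bases. Acsl4 activates arachidonic acid in preference to other fatty acids, Acsl3 feeds fatty acids into phospholipids and lipid droplets, and Lpcat3 loads polyunsaturated chains onto lysophospholipids. In the liver, Fads1 and Fads2 are known to be repressed by dietary polyunsaturated fat through SREBP-1.

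The 3 desaturases sit side by side on chromosome 19 (build GRCm38), Fads3 at chr19:10041569-10060110 on the plus strand, Fads2 at chr19:10062765-10101746 on the minus strand and Fads1 at chr19:10182888-10196877 on the plus strand. RefSeq promoter windows (250 bases before to 50 after the transcript start, GRCm38.p6) were found for 9 of the 10 genes, in 11 windows, and Fads1 was not among them. The windows of Fads2 and Fads3 are shown because these neighbours behaved differently in the samples, as described further down. Capitals mark GC boxes (GGGCGG) and NF-Y boxes (CCAAT), each searched on both strands. Fads2 is at chr19:10101454-10101753 on the minus strand and Fads3 at chr19:10041298-10041597 on the plus strand.
Fads2: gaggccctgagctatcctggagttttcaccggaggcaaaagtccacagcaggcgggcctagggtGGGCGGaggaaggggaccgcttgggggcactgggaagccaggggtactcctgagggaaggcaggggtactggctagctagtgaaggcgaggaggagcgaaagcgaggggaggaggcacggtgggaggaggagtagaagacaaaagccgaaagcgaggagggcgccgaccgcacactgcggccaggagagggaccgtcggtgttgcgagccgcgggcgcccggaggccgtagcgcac
Fads3: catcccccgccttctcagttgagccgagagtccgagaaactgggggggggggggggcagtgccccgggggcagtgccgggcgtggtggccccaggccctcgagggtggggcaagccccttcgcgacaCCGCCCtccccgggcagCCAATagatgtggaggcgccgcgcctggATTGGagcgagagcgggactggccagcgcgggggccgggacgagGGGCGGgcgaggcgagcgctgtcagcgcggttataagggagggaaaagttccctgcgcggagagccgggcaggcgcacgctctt

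Fads3 held 2 GC boxes and 2 NF-Y boxes in its window and Fads2 held 1 GC box. Of 32851 windows of the same length over all genes, 35.7% held a GC box and 37.4% an NF-Y box. A sterol response element (TCACNCCAC), present in 1.24% of all windows, was found in none of the 11, which says only that these letters are not in these 300 bases.

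The libraries held 27590631 to 41301707 counted read pairs each, and a single mouse gave 460 to 1128 counts for Fads1, 180 to 653 for Fads2 and 102 to 473 for Fads3. Levels are given as CPM, counts scaled to the library total after TMM normalization. The label was checked against markers: the VP secretory genes Sbp, Spink1, Msmb and Azgp1 summed to 103345 to 335603 CPM and the luminal epithelial genes to 2390 to 3489 CPM, while of the 7 markers of other lobes and seminal vesicle Pbsn was the 1 that passed the filter on low counts. Pbsn was scarce in LO mouse 2 and SO mouse 5 at 12 weeks, where that list summed to 123 and 346 CPM. In every other mouse the list was not low, at 1837 to 7530 CPM, a range that reaches above that of the luminal genes. Adipocyte markers varied most, from 5.18 to 440 CPM summed over 6 genes. The samples are whole tissue, so fewer cells of a type and less RNA per cell cannot be told apart.

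Of the 10 genes, 9 passed the filter on low counts and Elovl2 was almost silent in this gland. Per length of exon (RPKM, which is CPM divided by the exon length in kilobases) the level over the 30 mice was 24.9 ± 4.08 (SD) for Acsl4, 18.9 ± 1.68 for Elovl1 and 11.4 ± 0.718 for Lpcat3. The elongase Elovl5 followed at 8.88 ± 1.23 RPKM, and Elovl7 at 6.49 ± 0.996 and Acsl3 at 6.21 ± 0.780 RPKM lay within their spread of each other, Elovl7 being above Acsl3 in 19 of 30 mice. The desaturases came last among the 9, Fads1 at 4.61 ± 0.838, Fads2 at 3.09 ± 0.748 and Fads3 at 1.73 ± 0.650 RPKM. Fads1 exceeded Fads2 in 30 of 30 mice and Fads2 exceeded Fads3 in 29. With the length of the longest transcript in place of all exons, Elovl1 (28.5 RPKM) came before Acsl4 (25.5 RPKM), and Acsl3, Elovl7 and Fads1 lay together between 6.85 and 6.41 RPKM.

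Elovl2, which completes the route to docosahexaenoic acid in other tissues, had 0 to 7 read pairs per mouse and none in 6 of 30 mice. Its highest level was 0.214 CPM, in an LO mouse at 32 weeks. It did not pass the filter on low counts of edgeR at either time. DESeq2 gave it an adjusted p only in LO against SO at both times and in 2 interactions, those of PF against SO and of LO against SO. It was called in none of these. In the other comparisons DESeq2 gave it no adjusted p, so no call was possible there. Its smallest unadjusted p by DESeq2 was 0.137, in LO against SO at 32 weeks. A difference between diets in Elovl2 was not detectable at this depth.

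**Figure D1:**
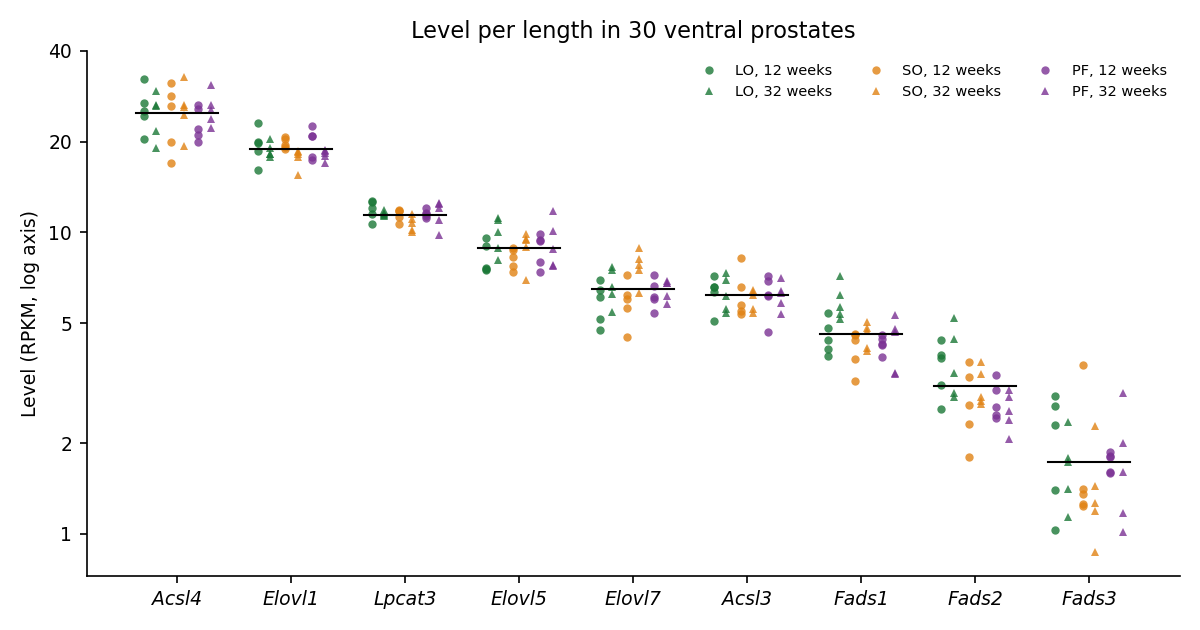
Level of the 9 tested genes per length of exon (RPKM, log axis) in each of 30 mice, coloured by diet, with circles for 12 and triangles for 32 weeks and a black line at the mean of the 30. Acsl4 and Elovl1 lie highest, Fads3 lies lowest and is the most scattered, and Elovl2, at 0.0148 RPKM on average, is left out.

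The genes also differed in how steady they were between mice on the same diet. Lpcat3 was the steadiest, with a coefficient of variation within groups of 5.95%, followed by Elovl1 at 8.42%. Elovl5, Elovl7, Acsl3 and Fads1 lay between 13.1% and 13.7%, Acsl4 at 17.4%, Fads2 at 21.4% and Fads3 at 39.4%. These spreads set what could be seen: at 12 weeks the 95% interval of a difference between diets reached 0.12 to either side on the log2 scale for Lpcat3 and 0.66 for Fads3.

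The first question was whether the fat in the diet went with the expression of these genes after 12 weeks. None of the 9 tested genes passed an adjusted p of 0.05 in PF against SO, in PF against LO or in LO against SO with the quasi-likelihood test of edgeR, nor with the Wald test of DESeq2. The background was the same for edgeR, which called 0% of all genes in each of the 3 comparisons, while DESeq2 called 1.31%, 0.522% and 0%. At an unadjusted p under 0.05 the count was 0 of 9 in each, against 7.99%, 9.24% and 4.28% of all 15873 genes. The median log2 difference over the 9 genes was 0.01, -0.04 and 0.05, and over all genes it was -0.01, 0.00 and 0.00. The comparisons at one time share their mice, so their values are not independent.

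Among the desaturases at 12 weeks, Fads2 had the widest gap between diets. In the LO mice Fads2 stood at 14.5, 8.56, 10.3, 12.6 and 12.9 CPM. In the SO mice it stood at 7.64, 8.80, 5.93, 12.3 and 10.9 CPM, and in the PF mice at 11.1, 8.65, 8.01, 8.14 and 9.91 CPM. LO mice 1, 3, 4 and 5 were above the median of either other group, and all 3 groups overlapped. The difference PF against LO was -0.36 on the log2 scale (SE 0.18, 95% interval -0.74 to 0.03, edgeR adjusted p = 0.580), and LO against SO was 0.37 (SE 0.18, interval -0.02 to 0.76, edgeR adjusted p = 0.999).

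Fads1, the desaturase of the later step, was nearly level at that time. It stood at 23.2, 18.7, 19.7, 21.2 and 26.0 CPM in LO mice, at 15.4, 22.1, 18.3, 21.2 and 22.0 CPM in SO mice and at 20.4, 18.5, 20.5, 21.2 and 22.0 CPM in PF mice. The groups overlapped almost fully, and the largest difference, LO against SO, was 0.14 (SE 0.11, interval -0.09 to 0.37). The elongases, synthetases and Lpcat3 differed between diets by at most 0.16 on the log2 scale in either direction, the furthest being Acsl4 in PF against LO at -0.16 (SE 0.16, interval -0.50 to 0.18). For Lpcat3 the interval of PF against SO ran from -0.11 to 0.13 and for Elovl1 from -0.18 to 0.22. Fads3 differed by -0.23 in PF against LO and by 0.20 in LO against SO, each with an SE of 0.31. The latter was 0.63 without SO mouse 5 (unadjusted p = 0.0178, adjusted p = 0.932 by edgeR).

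The same question at 32 weeks gave wider gaps in Fads1 and Fads2, both with the LO mice on top, but no call. None of the 9 genes passed the adjusted threshold in PF against SO, in PF against LO or in LO against SO by edgeR, which called 0% of all genes in each, nor by DESeq2, which called 0.726%, 0.585% and 0.0234%. At an unadjusted p under 0.05 there was 1 of 9 in PF against SO (Elovl7), 2 of 9 in PF against LO (Fads1 and Fads2) and 1 of 9 in LO against SO (Fads1). Over all 16218 genes these shares were 10.8%, 8.6% and 3.48%. For the direction in which the named genes moved they were 5.07% lower in PF than SO, 4.12% lower in PF than LO and 1.5% higher in LO than SO. The median log2 difference over the 9 genes was 0.05, -0.03 and 0.11, and over all genes it was 0.00, 0.01 and 0.00.

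Fads1, which makes arachidonic and eicosapentaenoic acid, was the gene with the smallest p among the 9 at 32 weeks. In the LO mice it stood at 27.1, 25.7, 34.5, 24.8 and 29.9 CPM, a mean of 28.4 ± 3.93 (SD, n = 5). In the SO mice it stood at 19.5, 19.9, 23.2, 24.2 and 22.6 CPM, a mean of 21.9 ± 2.09 (SD, n = 5). In the PF mice it stood at 16.3, 25.5, 22.4, 16.4 and 23.0 CPM, a mean of 20.7 ± 4.17 (SD, n = 5). Every LO mouse lay above every SO mouse, by a narrow margin at the edge, and LO mouse 4 lay below PF mouse 2, so LO and PF overlapped in that pair. Groups that did not overlap with LO on top were seen for 0.259% of all genes in that comparison.

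On the log2 scale Fads1 in PF against LO differed by -0.45 (SE 0.13, interval -0.72 to -0.17), which is 0.734 of the LO level, with an unadjusted p of 0.00347 and an adjusted p of 0.354 by edgeR and of 0.117 by DESeq2. LO against SO differed by 0.39 (SE 0.13, interval 0.11 to 0.66), with an unadjusted p of 0.0090 and an adjusted p that rounds to 1 by edgeR. PF against SO differed by -0.06 (SE 0.13, interval -0.34 to 0.21). Both differences rest on the same LO mice. Over the 25 alternatives the value of PF against LO stayed between -0.53 and -0.37, with an unadjusted p of at most 0.0135 and an adjusted p from 0.117 to 0.860.

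Fads2, the desaturase of the first step, gave the same order of group means with more scatter. It stood at 17.1, 11.2, 14.6, 9.39 and 9.65 CPM in the LO mice, at 12.3, 9.10, 9.34, 11.1 and 8.88 CPM in the SO mice and at 6.80, 9.90, 9.39, 7.87 and 8.39 CPM in the PF mice. LO mice 1 and 3 stood far above the rest, while LO mice 4 and 5 lay within the range of the PF mice. PF against LO differed by -0.54 on the log2 scale (SE 0.17, interval -0.91 to -0.17), with an unadjusted p of 0.0068 and an adjusted p of 0.397 by edgeR and of 0.150 by DESeq2. Without LO mouse 1 the value was -0.39. LO against SO differed by 0.30 (SE 0.17, interval -0.07 to 0.67) and PF against SO by -0.24 (SE 0.17, interval -0.61 to 0.13).

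**Figure D2:**
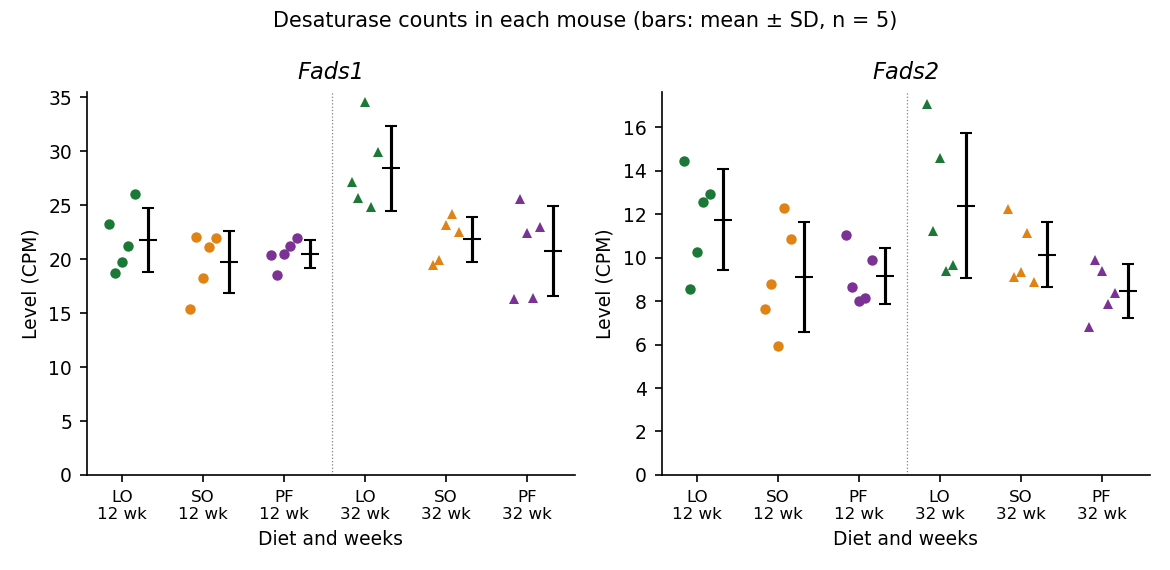
Level of Fads1 (left) and Fads2 (right) in CPM in each mouse, by diet and weeks on the diet, with bars for the mean ± SD of 5 mice. At 32 weeks the 5 LO mice lie between 24.8 and 34.5 CPM for Fads1, above all SO mice, while for Fads2 the LO mice spread from 9.39 to 17.1 CPM and overlap both other groups.

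Summed levels of several tissue marker lists had different medians in the same groups. The 4 VP secretory genes had a median sum of 146492 CPM in LO (range 103345 to 198343), 156901 in SO (142800 to 170404) and 257116 in PF mice (122909 to 296339) at 32 weeks. The 4 basal epithelial markers had a median sum of 178 CPM in LO (range 131 to 240), 152 in SO (109 to 163) and 119 in PF mice (101 to 144). The 3 endothelial markers had medians of 46.9, 45.6 and 42.2 CPM in LO, SO and PF, with overlapping ranges. The 6 fibroblast markers had medians of 1182, 994 and 1067 CPM in LO, SO and PF, also with overlapping ranges. Of these 6 genes, 5 had a lower fitted level in PF than in LO. All 6 had a higher one in LO than in SO, and also in PF than in SO. Smooth muscle markers had medians of 1911, 1761 and 1589 CPM and leukocyte markers of 137, 124 and 85.1 CPM in LO, SO and PF, and 5 of 5 smooth muscle genes and 6 of 8 leukocyte genes had a lower fitted level in PF than in LO. Erythroid markers had medians of 46.0, 26.4 and 107 CPM, with ranges of 39.3 to 110, 23.6 to 63.2 and 34.2 to 385 CPM. No gene of these lists was at 0 in all mice of a group, and their part in the Fads1 and Fads2 values was not tested.

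Fads3, the third gene of the cluster, did not share the order of its neighbours. At 32 weeks it stood at 6.77, 4.33, 8.91, 6.54 and 5.34 CPM in LO mice, at 4.80, 3.30, 5.47, 4.53 and 8.62 CPM in SO mice and at 6.07, 11.1, 3.83, 4.46 and 7.56 CPM in PF mice. The groups overlapped throughout, and PF against LO was 0.06 (SE 0.30, interval -0.58 to 0.70). PF against SO was 0.33 (SE 0.30), and -0.06 without SO mouse 2 and PF mouse 2. The genes that flank the cluster, chosen by position, lay on both sides of 0 in PF against LO. Best1 and Rab3il1, on the side of Fads3, differed by -0.69 and -0.39 on the log2 scale, with unadjusted p of 0.0627 and 0.0806 in the edgeR fit. Best1 was scarce, at a mean of 0.599 CPM over the 30 mice. Mir6993, Gm10143 and Myrf, also found by position, did not pass the filter on low counts. Fen1, a flap endonuclease, and Tmem258, a subunit of the oligosaccharyltransferase complex, lie beyond Fads1 and differed by 0.30 and 0.17, with unadjusted p of 0.0381 and 0.0563 in the same edgeR fit.

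Among the elongases at 32 weeks, Elovl7 alone reached an unadjusted p under 0.05, with the SO mice on top. It stood at 25.1, 32.8, 30.1, 35.6 and 31.3 CPM in SO mice and at 23.1, 24.7, 27.3, 27.2 and 27.7 CPM in PF mice. SO mouse 1 lay among the PF mice and the other SO mice above them. PF against SO differed by -0.23 on the log2 scale (SE 0.10, interval -0.45 to -0.02), with an unadjusted p of 0.0349 and an adjusted p of 0.435 by edgeR, and the unadjusted p was at or over 0.05 in 7 of 25 alternatives. Elovl5, the elongase between Fads2 and Fads1, differed in PF against LO by -0.08 (SE 0.13, interval -0.35 to 0.19).

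Of the genes that place fatty acids into lipids, Acsl3 and Acsl4 differed by at most 0.08 between diets at 32 weeks, with intervals for PF against LO of -0.21 to 0.19 for Acsl3 and -0.21 to 0.37 for Acsl4. Lpcat3 had its lowest mean in the SO mice, at 36.3, 33.3, 35.1, 32.8 and 37.4 CPM, against 37.7, 36.9, 37.4, 38.7 and 37.5 CPM in LO and 32.0, 40.5, 35.95, 39.3 and 41.0 CPM in PF mice. PF mouse 1 was the lowest of all 15, and the groups overlapped. PF against SO differed by 0.13 (SE 0.07, interval -0.01 to 0.27) and LO against SO by 0.11 (SE 0.07, interval -0.03 to 0.25).

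**Figure D3:**
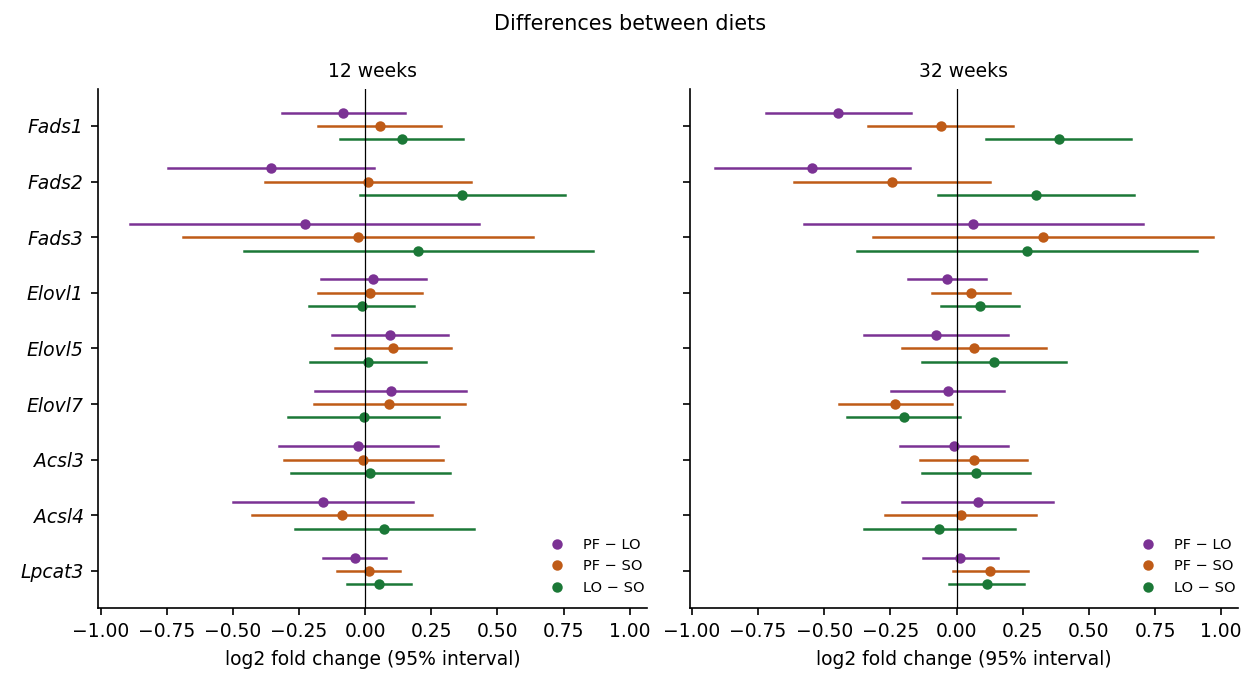
Difference between diets in each tested gene on the log2 scale at 12 weeks (left) and 32 weeks (right), with the 95% interval as a line and colours for the 3 pairs of diets. At 32 weeks the intervals of Fads1 and Fads2 in PF against LO (centres -0.45 and -0.54) of Fads1 in LO against SO (0.39) and of Elovl7 in PF against SO (-0.23) lie clear of 0, and those of Fads3 are the widest.

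The second question was what changed from 12 to 32 weeks on the same diet. In a fit of all 30 mice edgeR called 2.7% of all 16605 genes in LO, 6.46% in SO and 0.0301% in PF, and 0 of the 9 genes in each. At an unadjusted p under 0.05 there were 2 of 9 in LO, 1 of 9 in SO and 0 of 9 in PF, against 20.5%, 19.7% and 10.2% of all genes. All 3 of these were higher at 32 weeks, as were 11.4% of all genes in LO and 12.6% in SO. DESeq2 called 1 of the 9 in LO (Fads1) and 1 in SO (Elovl7), against 6.56% and 8.03% of all genes, and 0 in PF (0.295%).

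In LO mice Fads1 went from 21.8 ± 2.93 CPM (SD, n = 5) at 12 weeks to 28.4 ± 3.93 (SD, n = 5) at 32 weeks. The 12-week mouse with most Fads1, at 26.0 CPM, lay above 2 of the 32-week mice, so the groups overlapped slightly. The difference was 0.38 on the log2 scale (SE 0.12, interval 0.13 to 0.64), with an adjusted p of 0.0768 by edgeR and 0.0424 by DESeq2. In SO mice the same difference was 0.14 (SE 0.12, interval -0.11 to 0.40) and in PF mice 0.01 (SE 0.12, interval -0.24 to 0.27). Fads2 differed in time by 0.08, 0.16 and -0.11 in LO, SO and PF, each with an SE of 0.18.

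Whether a diet difference itself shifted between the times was tested as an interaction. edgeR called 0% of all genes in each of the 3 interactions and 0 of the 9, and DESeq2 called 0 of the 9 against 0.224%, 0.0702% and 0% of all genes for PF against SO, for PF against LO and for LO against SO. At an unadjusted p under 0.05 there were 0, 1 and 0 of the 9, against 9.49%, 7.79% and 3.33% of all genes, and 4.19% were lower for PF against LO. The 1 was Fads1 in PF against LO, whose difference was lower at 32 than at 12 weeks by -0.37 (SE 0.17, interval -0.73 to -0.01, unadjusted p = 0.0438, adjusted p = 0.633 by edgeR). Its unadjusted p was at or over 0.05 in 11 of 26 alternatives. For Fads2 this shift was -0.19 (SE 0.26, interval -0.72 to 0.34).

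Elovl7, an elongase of very long saturated chains, was the nearest to a call in SO mice. It stood at 24.2, 24.8, 29.0, 22.5 and 18.0 CPM at 12 weeks and at 25.1, 32.8, 30.1, 35.6 and 31.3 CPM at 32 weeks. SO mouse 3 at 12 weeks lay above SO mouse 1 at 32 weeks, and the other 32-week mice lay above all 12-week mice. With time Elovl7 in SO thus had a log2 difference of 0.39 (SE 0.12, interval 0.14 to 0.63), with an adjusted p of 0.0510 by edgeR and 0.0330 by DESeq2. It was 0.19 in LO (SE 0.12, interval -0.06 to 0.43) and 0.05 in PF mice (SE 0.12, interval -0.20 to 0.29).

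The remaining elongases differed less with time. Elovl5 in LO mice stood at 26.7, 26.9, 26.5, 31.6 and 33.8 CPM at 12 weeks and at 28.5, 35.3, 38.8, 31.3 and 39.2 CPM at 32 weeks, with 3 of the older mice above all younger ones. The difference was 0.25 (SE 0.12, interval 0.01 to 0.49, unadjusted p = 0.0451, adjusted p = 0.231 by edgeR), and the unadjusted p was at or over 0.05 in 6 of 17 alternatives. Elovl1 in SO mice stood at 56.6, 52.9, 52.4, 51.4 and 55.5 CPM at 12 weeks and at 50.8, 42.1, 48.4, 50.2 and 49.6 CPM at 32 weeks, so the groups did not overlap, with the older mice lower, as in 2.3% of all genes. The difference was -0.16 (SE 0.08, interval -0.32 to 0.00, adjusted p = 0.262 by edgeR), and it was -0.14 in PF (SE 0.08) and -0.06 in LO (SE 0.08). The value in LO was 0.03 without LO mouse 2 of the 12-week group.

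Acsl3, Acsl4 and Lpcat3 kept nearly the same level over time on all diets. Their differences lay between -0.10 (Lpcat3 in SO, interval -0.22 to 0.02) and 0.16 (Acsl4 in PF, interval -0.16 to 0.48). Fads3 differed by -0.28, -0.34 and 0.01 in LO, SO and PF, with an SE of 0.32 in each. Without SO mouse 5 of the 12-week group the value in SO was 0.10. Without PF mouse 1 of the 32-week group Lpcat3 in PF was 0.07 in place of 0.00.

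**Figure D4:**
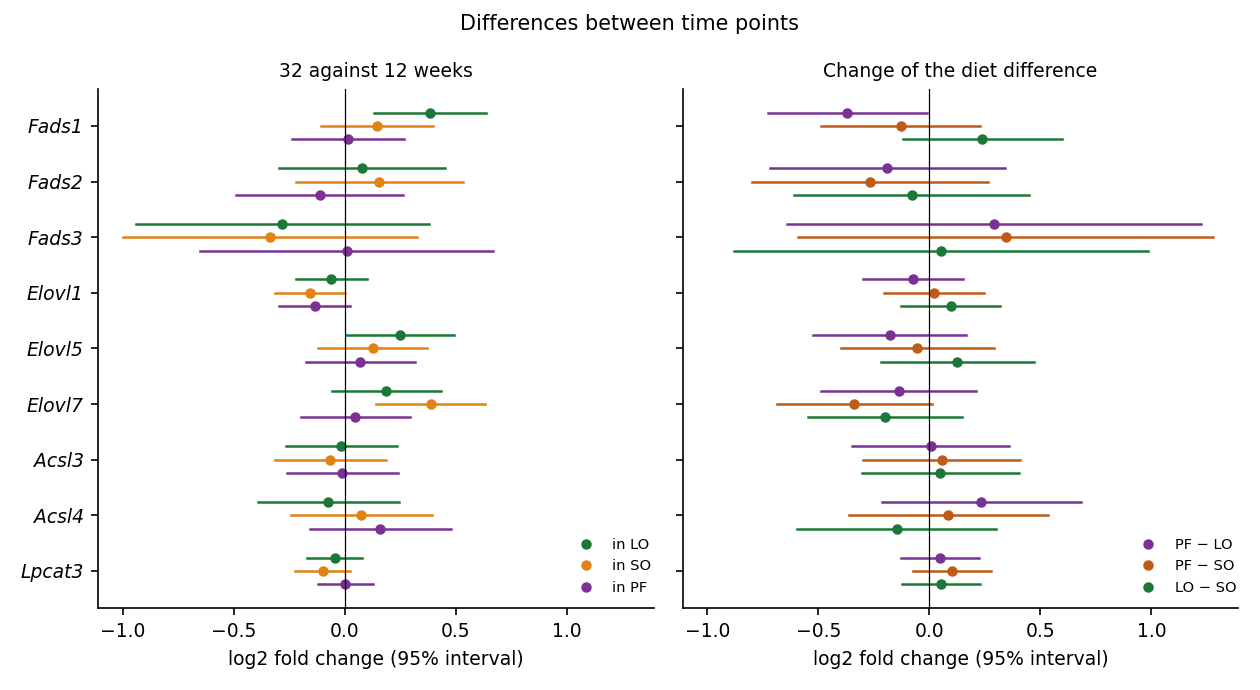
Difference between 32 and 12 weeks within each diet (left) and change of each diet difference from 12 to 32 weeks (right) for the 9 tested genes, on the log2 scale with 95% intervals. Fads1 in LO (0.38) and Elovl7 in SO (0.39) lie furthest above 0 on the left, and on the right the intervals hold 0 for all but Fads1 in PF against LO.

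Cell type markers moved with time too. The basal marker Krt15 rose in LO mice by 1.24 on the log2 scale (edgeR adjusted p = 0.00464) and Sbp, the main VP secretory gene, fell by 0.81 (edgeR adjusted p = 0.0410). Of the 4 basal genes edgeR called 3 higher in LO, 2 in SO and 0 in PF, against 2.7%, 6.46% and 0.0301% of all genes called. Of the 4 VP secretory genes it called 1 lower in LO, 1 in SO and 0 in PF. In LO and in SO, 1 of these 4 had a higher fitted level at 32 weeks, and in PF 2 did. The summed leukocyte markers had a median of 74.9 CPM in LO mice at 12 weeks (range 44.0 to 89.9) and 137 at 32 weeks (58.9 to 214). In SO mice they had a median of 51.2 CPM (38.8 to 63.1) and 124 CPM (65.3 to 201), and the pan-leukocyte gene Ptprc rose by 1.85 (edgeR adjusted p = 0.00501). No marker of these lists was at 0 in all mice of a group, and their part in the Fads1 and Elovl7 values was not tested.

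The mice of one group differed among themselves along the same markers. The level of each of the 9 genes and the summed level of each of 11 marker lists were compared over the 30 mice after the mean of each group was subtracted, 99 relations in all, of which 21 had an adjusted permutation p under 0.05 for Pearson's r and 19 of these also for Spearman's rho. All values of a mouse come from 1 library and 1 scaling, and no relation names a cell of origin. Mice were permuted within their groups 100000 times, two-sided, and p-values were adjusted over the 99. Acsl4 went with the markers of other lobes and seminal vesicle (r = 0.66, rho = 0.60, adjusted permutation p of 0.00247 and 0.0117). Without the 2 furthest mice that r was 0.60. Elovl5 ran against the luminal markers (r = -0.65, rho = -0.62, adjusted permutation p of 0.00594 and 0.0117).

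Fads3 followed the adipocyte markers more closely than any other gene followed any list. Pearson's r was 0.84 and Spearman's rho 0.87 over 30 mice, each with a permutation p of 1e-05, the smallest that could be given, and an adjusted p of 0.00099. Without the 2 mice furthest from the median r was 0.80, and it was 0.89 within the 15 mice of 12 weeks and 0.79 within the 15 of 32 weeks. SO mouse 5 at 12 weeks had 418 CPM of adipocyte markers and 13.8 CPM of Fads3, while the other SO mice had 28.9 to 87.6 CPM of markers and 4.69 to 5.35 CPM of Fads3. In PF mice at 32 weeks the 2 mice with the most Fads3, mice 2 and 5, had 440 and 366 CPM of adipocyte markers, and mouse 1 had 390 CPM with 6.07 CPM of Fads3.

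**Figure D5:**
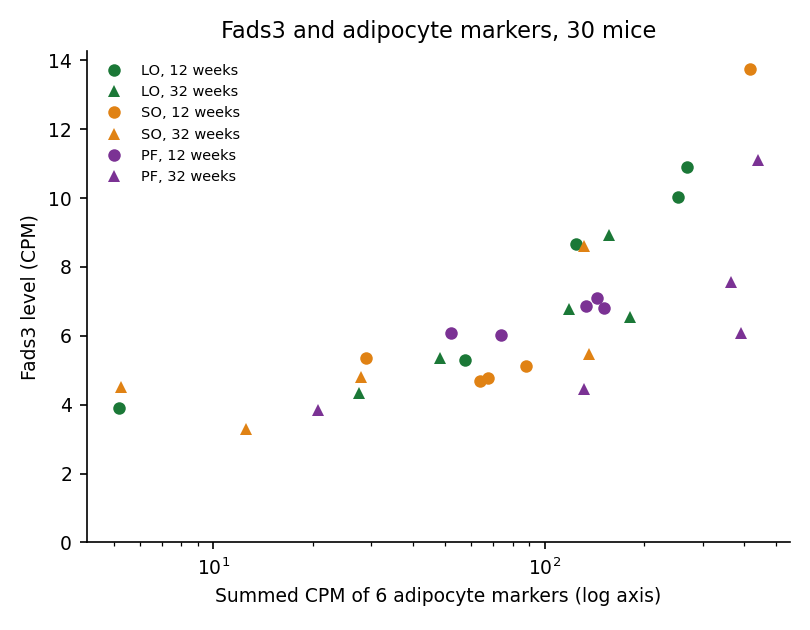
Level of Fads3 in CPM against the summed CPM of 6 adipocyte markers (log axis) in 30 mice, coloured by diet, with circles for 12 and triangles for 32 weeks. Fads3 is highest, at 13.8 CPM, in the SO mouse at 12 weeks with 418 CPM of adipocyte markers, and mice under 30 CPM of markers have at most 5.35 CPM of Fads3.

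Fads1 and Fads2 were related to lists other than the adipocyte markers, and Fads3 and Elovl5 shared the endothelial relation of Fads1. For Fads3 and Elovl5 r with the endothelial list was 0.59 and 0.64 (adjusted permutation p of 0.0132 and 0.0135). Fads1 was related to the 3 endothelial markers (r = 0.77, rho = 0.74, permutation p of 3e-05 and 8e-05, adjusted p of 0.00149 and 0.00264), with r of 0.70 without the 2 furthest mice, 0.49 at 12 and 0.92 at 32 weeks. Its relations to fibroblast, leukocyte and neural markers had r of 0.61, 0.60 and 0.63. Fads2 was related to the 5 smooth muscle markers (r = 0.61, rho = 0.58, permutation p of 0.0006 and 0.00194, adjusted p of 0.00594 and 0.0148), with r of 0.57 without the 2 furthest mice, 0.75 at 12 and 0.48 at 32 weeks. Fads2 ran against the VP secretory genes (r = -0.53, rho = -0.51, permutation p of 0.00326 and 0.0104, adjusted p of 0.0202 and 0.0493), with r of -0.50 without the 2 furthest mice, -0.48 at 12 and -0.59 at 32 weeks. Neither had an adjusted p under 0.05 with the adipocyte markers, where r was 0.12 for Fads1 and -0.03 for Fads2.

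Elovl7 and Acsl3 ran against smooth muscle. For Elovl7 r was -0.69 and rho -0.72 (permutation p of 0.00018 and 7e-05, adjusted p of 0.00356 and 0.00264), and r was -0.70 without the 2 furthest mice. For Acsl3 r was -0.71 and rho -0.62 (permutation p of 0.0001 and 0.00113, adjusted p of 0.00247 and 0.0117), and r was -0.66 without the 2 furthest mice. At 32 weeks the smooth muscle markers had a median sum of 1761 CPM in SO mice, where Elovl7 had its highest mean, against 2198 CPM at 12 weeks, and the ranges of 1628 to 2600 and 1678 to 2297 CPM overlapped. In PF mice the median sum was lower still at 32 weeks, 1589 CPM against 1876 at 12 weeks, with Elovl7 means of 26.0 and 25.2 CPM. In LO mice it was 1911 against 2180 CPM, with Elovl7 means of 26.8 and 23.6 CPM. Elovl7 also ran against the adipocyte markers, with r and rho of -0.54 (permutation p of 0.00549 and 0.00599, adjusted p of 0.0272 and 0.0312). Without the 2 furthest mice r was -0.50. At 32 weeks the adipocyte markers had a median sum of 27.9 CPM in SO mice (range 5.27 to 136) and 366 in PF mice (20.7 to 440). The part of smooth muscle or of adipocytes in the Elovl7 values was not tested.

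The 36 pairs of the 9 genes were compared in the same way. The strongest was Fads2 with Acsl3, in opposite directions (r = -0.72, rho = -0.65, permutation p of 0.0001 and 0.00095, adjusted p of 0.0018 and 0.0114, r of -0.65 without the 2 furthest mice). Elovl5 and Acsl4 went together (r = 0.69, rho = 0.68, permutation p of 5e-05 and 0.00012, adjusted p of 0.0018 and 0.00432, r of 0.67 without the 2 furthest mice). Fads1 and Fads2, on opposite strands of the cluster, had r of 0.51 and rho of 0.54 (permutation p of 0.0104 and 0.00665, adjusted p of 0.0416 and 0.0299, r of 0.58 without the 2 furthest mice), and Fads2 with Fads3 had r of 0.23 (adjusted p = 0.465 in the permutation test).

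After subtraction of group means, the genes most like Fads1 over the 30 mice were Lama2, Itih5, Irak3, Trim35 and Naalad2. Their r ran from 0.83 to 0.87, and Fads2 ranked 1146 in that list. Those most like Fads2 were Itpkb, Klhl29, Itga5, Bdkrb2 and Synpo, with r from 0.83 to 0.88, and Fads1 ranked 711. Without the subtraction, none of the 5 for Fads1 and 3 of the 5 for Fads2 stayed, and the ranks were 435 and 197. Lama2 encodes a laminin chain of basement membranes, Itga5 the fibronectin receptor subunit and Synpo an actin-associated protein. Neither list held another of the 10 genes.

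The other genes of the pathway were taken from 6 lists (other elongation and desaturation, peroxisomal chain shortening, acyl-CoA synthetases and uptake, acyltransferases and phospholipases, regulators, and partners in ferroptosis), 77 genes tested. In the 3 diet comparisons at 12 weeks edgeR called none, with 7, 9 and 2 of the 77 at an unadjusted p under 0.05 for PF against SO, for PF against LO and for LO against SO, and DESeq2 called 2, 0 and 0. Over all genes the shares were 7.99%, 9.24% and 4.28% at an unadjusted p under 0.05 and 1.31%, 0.522% and 0% by DESeq2. At 32 weeks edgeR again called none, with 6, 5 and 4 of the 77 at an unadjusted p under 0.05, and DESeq2 called 1, 0 and 0, against 10.8%, 8.6% and 3.48% and against 0.726%, 0.585% and 0.0234% of all genes. In the 3 interactions edgeR and DESeq2 called none, with 3, 6 and 2 of the 77 at an unadjusted p under 0.05, against 9.49%, 7.79% and 3.33% of all genes. The list of other elongation and desaturation genes had 14 tested members and a median log2 difference in PF against LO of 0.13 at 12 and 0.14 at 32 weeks, with 12 and 11 members above 0, against 0.00 and 0.01 over all genes.

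Scd1, the stearoyl-CoA desaturase that makes monounsaturated from saturated chains, had the smallest p of that list at 32 weeks, and its level was highest in PF mice. Its median was 1106 CPM in PF mice (range 675 to 2615), 614 in SO (450 to 872) and 626 in LO mice (589 to 1061), with overlapping ranges. In PF against SO Scd1 had a log2 difference of 1.26 with an SE of 0.32 (adjusted p = 0.278 by edgeR and 0.0232 by DESeq2) and PF against LO by 1.08 (SE 0.32, adjusted p = 0.357 by edgeR and 0.0738 by DESeq2). Adipocyte markers had a median sum of 366 CPM in these PF mice (range 20.7 to 440), 27.9 in SO (5.27 to 136) and 118 in LO mice (27.5 to 181), and their part in the Scd1 values was not tested. At 12 weeks Elovl6, the elongase that lengthens palmitate, had the smallest p of that list in PF against SO, at 1.27 (SE 0.43, adjusted p = 0.321 by edgeR), where 1 PF mouse reached 20.2 CPM and the median was 5.13 CPM.

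Between diets at 12 weeks Mfsd2a, the transporter of lysophospholipids that carry docosahexaenoic acid, was the list gene with the smallest p in LO against SO. Its median was 3.42 CPM in LO mice (range 2.83 to 4.53) and 2.04 CPM in SO mice (range 1.41 to 2.58), so the groups did not overlap. Groups that did not overlap with LO on top were seen for 0.384% of all genes there. The difference was 0.86 on the log2 scale (SE 0.20, unadjusted p = 0.000588, adjusted p = 0.999 by edgeR and 0.277 by DESeq2), and at 32 weeks it was 0.56 (SE 0.35, unadjusted p = 0.133).

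With time, 3 of the 77 genes passed the adjusted threshold in LO, 2 in SO and 0 in PF by edgeR, against 2.7%, 6.46% and 0.0301% of all genes. At an unadjusted p under 0.05 in edgeR there were 15, 11 and 6 of the 77, against 20.5%, 19.7% and 10.2% of all genes. DESeq2 called 4, 5 and 0 of the 77 in LO, SO and PF, against 6.56%, 8.03% and 0.295% of all genes. Acsl6 is an acyl-CoA synthetase known for handling docosahexaenoic acid in the brain. With time it rose by 0.98 in LO (SE 0.25, edgeR adjusted p = 0.0285) and by 1.29 in SO (SE 0.25, edgeR adjusted p = 0.00427). Acsl6 was not called in PF, but no interaction called it either, so a rise that differs between diets was not shown. It remained low throughout, with a median of 0.699 CPM at 12 weeks and 1.38 CPM at 32 weeks in LO mice. Degs1, the dihydroceramide desaturase, rose in LO by 0.40 (SE 0.10, edgeR adjusted p = 0.0246), and Pex5, the receptor that imports peroxisomal enzymes, fell in LO by 0.29 (SE 0.07, edgeR adjusted p = 0.0275). Cyb5r1, a reductase linked to lipid peroxidation, fell in SO by 0.32 (SE 0.07, edgeR adjusted p = 0.0118).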

How the data were processed

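RNA from the VP was sequenced by the authors as paired-end stranded mRNA libraries, aligned with TopHat2 and counted per gene with HTSeq, and the deposited values are raw counts, 1 table per mouse. The submitters' processing notes name GRCm38.p6, and the annotation release is not given in the sources used here. Pairs on several places (16.0% to 20.3% of a library) were not counted, nor were pairs on no gene or on 2 genes. Symbols and exon lengths came from GENCODE M21. Groups and mouse numbers came from the labels, which list separate mice, and among the 60 pairs of mice of 1 group none agreed within sampling noise (lowest chi-square per degree of freedom 24.5).

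Genes passing edgeR's filter (15873 at 12 weeks, 16218 at 32 weeks, 16605 over both) were scaled by TMM and compared by edgeR 4.0.16 (quasi-likelihood F test, two-sided, R 4.3.3), the 3 diets of a time in 1 fit, and all 30 mice in 1 fit for time and for interactions. P-values were adjusted by Benjamini-Hochberg over all genes, with a threshold of 0.05. The SE came from the F statistic. DESeq2 1.42.0, which the authors used, was an alternative, with the RLE scaling, other filters, a robust fit, other sets of mice, a replicate block and each mouse left out. Log2 CPM had a prior count of 2. The procedures were tested on simulated data. Mouse numbers were shared between diets, and same-numbered mice correlated over 0.1 in 5 of 15 pairs at 12 and 10 of 15 at 32 weeks. Their mean correlation was 0.0673 and 0.127, against -0.0165 and -0.0278 for mice of unlike number on different diets. They were not taken as pairs in the main test, and the replicate block covers this as an alternative. Whether mice of one number shared a batch was not tested.

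The genes and lists were chosen with earlier results of these data known. All 10 genes are described. Of the other lists, the 4 genes with the smallest p per comparison could be named, and 5 genes most like Fads1 and Fads2.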

Additional observations from a re-analysis of the deposited data

Results flagged for a closer look

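In 2 of 60 groups of 5 mice there was a mouse far from the others by Dixon's test, where chance alone gives about 1 in 20. Fads3 was at 13.8 CPM in SO mouse 5 at 12 weeks, and the next mouse of that group was at 5.35 CPM. That mouse also had 418 CPM of adipocyte markers and 346 CPM summed over the markers of other lobes and seminal vesicle. Without it, Fads3 in LO against SO at 12 weeks was 0.63 on the log2 scale (unadjusted p = 0.0178, adjusted p = 0.932 by edgeR) in place of 0.20, and in PF against SO 0.40 in place of -0.03. Elovl1 was at 42.1 CPM in SO mouse 2 at 32 weeks, and the next mouse was at 48.4 CPM.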

How the results depend on the processing

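The count of called genes among the 9 was 0 in all 6 diet comparisons, in the time comparison in PF and in the 3 interactions, under every alternative run. It was 1 in place of 0 in 2 time comparisons. In LO it was 1 with DESeq2 (Fads1), and 0 to 1 with each mouse left out in turn, the 1 being Fads1 without LO mouse 4 at 32 weeks (adjusted p = 0.0431 by edgeR). In SO it was 1 with DESeq2 (Elovl7), 1 with the replicate block (Elovl7, adjusted p = 0.0454 by edgeR), and 0 to 1 with each mouse left out, the 1 being Elovl7 without SO mouse 3 at 12 weeks (0.0307) or without SO mouse 1 at 32 weeks (0.0207). The cause was not tested. The block changed no other call. Same-numbered mice had a mean correlation of 0.0673 at 12 and 0.127 at 32 weeks, against -0.0165 and -0.0278 for mice of unlike number.

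Of the alternative log2 differences of the 9 genes, 2445 kept their side of the adjusted threshold without moving by over the spread, 6 passed it (those just named) and 6 moved, of which 4 were Fads3, 1 Elovl1 and 1 Lpcat3. None of the 5 genes most like Fads1, and 3 of those most like Fads2, were also among the 5 without subtraction of group means. With 5 mice a group, differences of Fads3 under 0.64 at 32 weeks lie within its interval.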
